A study of Mus musculus with 15 samples.

Results

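The Kruppel-like factors described here are 10 genes of the Klf family, Klf2, Klf3, Klf4, Klf5, Klf6, Klf7, Klf9, Klf10, Klf13 and Klf15, out of 17 Klf genes in the tables and 54838 genes in all. They were taken as a list of gene names and found by symbol, and each symbol matched 1 Ensembl identifier. Their transcripts were counted in 15 RNA libraries from mouse, which form 5 groups of 3. The first group was 4T1 cells, a BALB/c mammary carcinoma line that colonises the lung, recovered from lungs of BALB/c mice 7 days after injection into the tail vein (in vivo). The second was 4T1 cells from culture in DMEM with 10% serum (in vitro). The other groups were epithelial cells of the lung, sorted by flow cytometry and bearing the name of the surface protein EpCAM in their titles, from mice 7 days after injection of 800000 4T1 cells that label their surroundings. They came from the metastatic niche under the label shSox9, from the niche under the label control, and from distal lung under the label control, so that the distal cells too came from lungs exposed to 4T1 cells. Each epithelial library was a pool of 5 lungs, and the 4T1 groups rest on 1 cell line. Age and sex of the mice, and the cells that carried the Sox9 hairpin, have no entry in the labels and were not given in the sources used here.

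Kruppel-like factors are transcription factors with zinc fingers at their C-terminal end that bind GC-rich and CACCC-containing DNA in promoters. The family is usually divided by partner proteins. Klf2, Klf4, Klf5, Klf6 and Klf7 act mostly as activators. Klf3 represses through the corepressor CtBP, and Klf9, Klf10 and Klf13 recruit the Sin3A corepressor. Klf15 has a binding surface of its own and is a hormone-controlled regulator of amino acid and glucose metabolism. In the lung, Klf2 was first known as the lung Kruppel-like factor and is abundant in endothelium, and mouse Klf5 takes part in the maturation and fate of alveolar epithelium.

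Promoters of 8 of the 10 genes were found in RefSeq on GRCm38.p6. The stretches of Klf2, Klf4 and Klf6, which rose in 4T1 cells in vivo, and of Klf9 and Klf15, which fell in niche epithelium, are shown because the results below turn on these genes. Each is written 5′ to 3′ on the gene's strand, from 250 bases before the RefSeq start up to that start or to the GENCODE start, whichever comes first. The stretch of Klf2 lies at chr8:72318812-72319032 (plus strand), that of Klf4 at chr4:55532476-55532725 (minus), that of Klf6 at chr13:5861239-5861481 (plus), that of Klf9 at chr19:23140976-23141225 (plus) and that of Klf15 at chr6:90462326-90462575 (plus). Capitals mark matches to GGGCGG, to the box CACCC or to the MEF2 site on either strand, where neighbouring matches can overlap.
Klf2: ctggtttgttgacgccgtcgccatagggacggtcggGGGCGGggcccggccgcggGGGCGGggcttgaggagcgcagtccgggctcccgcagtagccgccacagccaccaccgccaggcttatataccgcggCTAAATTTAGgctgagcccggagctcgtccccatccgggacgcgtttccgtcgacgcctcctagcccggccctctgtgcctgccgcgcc
Klf4: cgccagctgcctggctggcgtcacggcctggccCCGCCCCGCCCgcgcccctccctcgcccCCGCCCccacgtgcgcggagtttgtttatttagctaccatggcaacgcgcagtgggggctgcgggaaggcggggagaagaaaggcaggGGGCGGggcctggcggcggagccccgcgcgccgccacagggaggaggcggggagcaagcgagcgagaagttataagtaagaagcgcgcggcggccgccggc
Klf6: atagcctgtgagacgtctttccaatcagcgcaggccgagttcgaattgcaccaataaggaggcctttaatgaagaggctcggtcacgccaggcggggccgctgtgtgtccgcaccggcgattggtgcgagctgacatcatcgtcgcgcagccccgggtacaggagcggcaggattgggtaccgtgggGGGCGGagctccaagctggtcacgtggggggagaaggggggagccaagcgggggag
Klf9: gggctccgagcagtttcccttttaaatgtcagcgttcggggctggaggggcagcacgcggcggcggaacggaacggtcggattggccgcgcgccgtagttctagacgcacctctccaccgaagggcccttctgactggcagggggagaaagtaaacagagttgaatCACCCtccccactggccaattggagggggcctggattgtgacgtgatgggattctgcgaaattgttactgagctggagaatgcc
Klf15: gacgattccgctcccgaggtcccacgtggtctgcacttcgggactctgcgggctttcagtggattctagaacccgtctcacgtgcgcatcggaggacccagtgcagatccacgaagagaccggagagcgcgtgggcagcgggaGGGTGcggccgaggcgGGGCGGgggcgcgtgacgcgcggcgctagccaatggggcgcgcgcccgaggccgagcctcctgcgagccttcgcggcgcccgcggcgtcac

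In the 250 bases before the start, GGGCGG occurred in 7 of 8 Klf promoters and in 32.7% of 32851 RefSeq promoters of the same length. CACCC occurred in 6 of 8 Klf promoters and in 52% of all. A MEF2 site, the element bound by MEF2 factors, occurred in 1 of 8, that of Klf2, as CTAAATTTAG at 118 to 109 bases before the start, and in 2.92% of all promoters. No Klf promoter matched TATAAA (12.4% of all), TGACGTCA (1.55%) or the CArG box of serum response factor (1.47%). A match describes the letters of these windows only. On GRCm38, the genes lie on 10 chromosomes, among them Klf2 on chromosome 8 (72319033 to 72321656, plus strand), Klf10 on chromosome 15 (38291463 to 38300706, minus strand), Klf5 on chromosome 14 (99298691 to 99315036, plus strand) and Klf15 on chromosome 6 (90462576 to 90475238, plus strand), all protein coding.

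Libraries held 15907316 to 30421705 counts. Sox9, the gene the hairpin label names, stood at 84.5, 60.1 and 36.9 CPM in niche libraries labelled shSox9, against 61.6, 57.1 and 32.8 CPM in niche libraries. It was not lower under that label (log2 fold change 0.26, SE 0.27, edgeR adjusted p = 0.55), so the libraries are called by their label. Sox9 stood at 262 to 360 CPM in 4T1 cells in vivo and at 5.63 to 6.83 CPM in distal epithelium. As niche libraries may hold RNA of 4T1 cells, the Sox9 level of the epithelial cells themselves cannot be read from this comparison. Summed markers of alveolar type 2 (AT2) cells, which make surfactant, reached 32864 to 59681 CPM in libraries labelled shSox9, 9633 to 12122 in niche libraries and 237621 to 317903 in distal libraries. Leukocyte markers summed to 194 to 678 CPM with shSox9, 1570.3 to 1783 in the niche and 395 to 675 in distal lung. Fibroblast and mural markers summed to 10257 to 16464 CPM with shSox9, 12332 to 14140 in the niche and 3874 to 4433 in distal lung. Endothelial markers summed to 76.7 to 120 CPM with shSox9, 102 to 126 in the niche and 166 to 222 in distal lung. The part of endothelial RNA in the Klf2 level of these libraries was not tested. Genes near 0 in distal lung and abundant in 4T1 cells (Atg9b, Exosc6, Hoxa10 and Parpbp) had a median of 13.7% to 17.2% of their in vivo 4T1 level with shSox9 and 13.1% to 26.7% in the niche. These 4 genes were chosen by their levels in 4T1 and distal libraries, and whether niche epithelium expresses them itself was not tested.

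Levels below are CPM, counts scaled to library size with TMM factors over the 15 libraries, and TPM, a share of transcripts corrected for length, where genes are compared with each other. Klf6, an early growth and injury response factor, had the highest TPM of the 10 genes in every group, with means of 581 ± 91.5 in 4T1 cells in vivo, 245 ± 16.8 in vitro, 704 ± 97.1 in niche epithelium labelled shSox9, 668 ± 110.3 in niche epithelium and 493 ± 152 in distal epithelium (SD, n = 3). The gene in second place differed by cell. It was Klf10 in 4T1 cells, at 283 TPM in vivo and 93.1 TPM in vitro. In the epithelial libraries it was Klf2, at 172 TPM with shSox9, 126 TPM in the niche and 110.2 TPM in distal lung. Klf15 had a count of 0 in all 6 libraries of 4T1 cells.

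**Figure D1:**
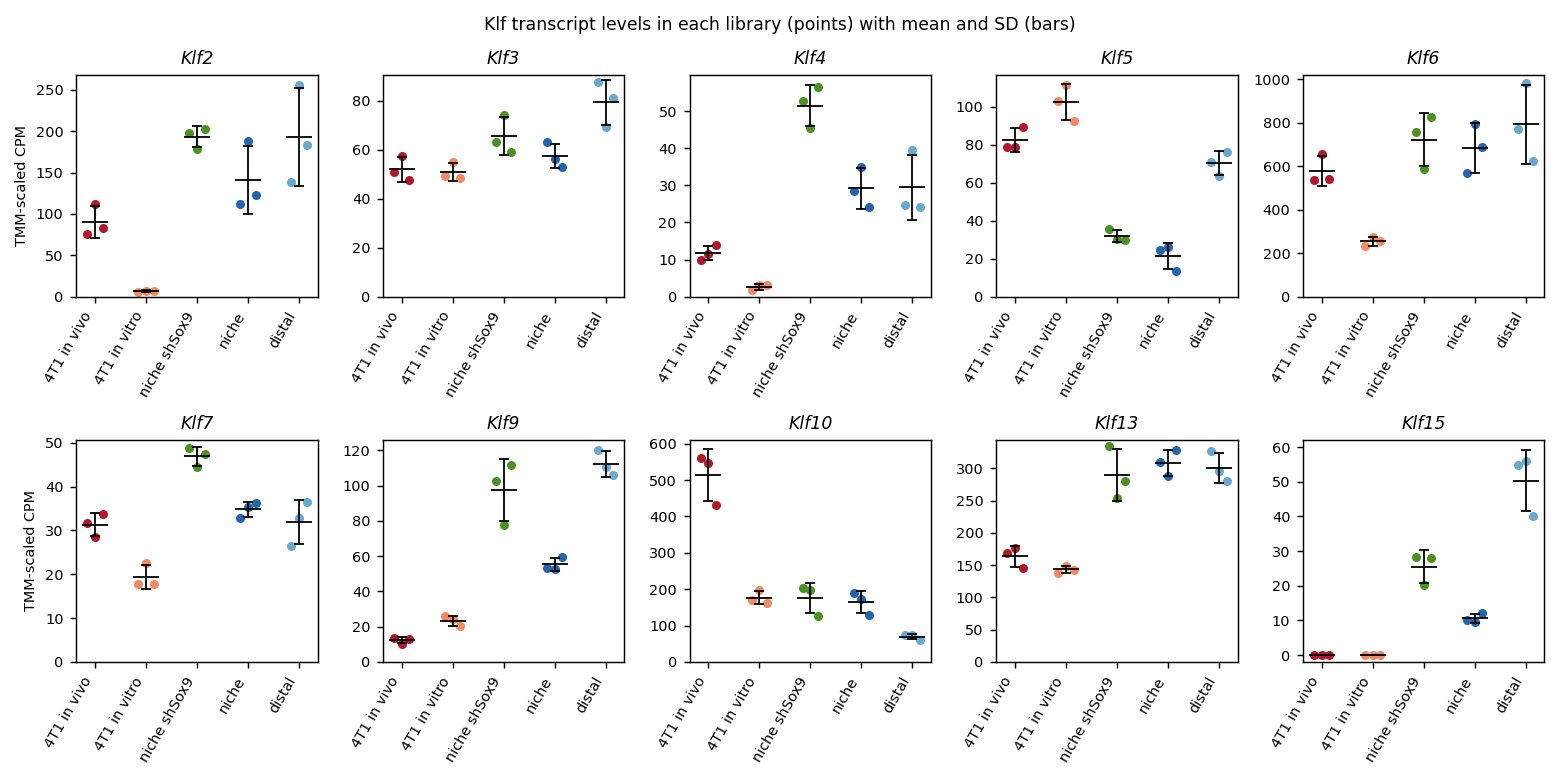
Level of each of the 10 Klf genes in the 15 libraries, in TMM-scaled CPM on linear axes that start at or just below 0. Points are libraries, the long bar is the mean and the capped bar the SD of 3 libraries. Klf2 is lowest in 4T1 cells in vitro (5.18 to 7.42 CPM), Klf10 highest in 4T1 cells in vivo (432 to 562 CPM), and Klf15 is at 0 in both 4T1 groups.

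The order of the group means in CPM differed between genes. Klf2 was highest in the libraries labelled shSox9 and in distal epithelium, followed by the niche, 4T1 cells in vivo and 4T1 cells in vitro, and every neighbouring pair overlapped except the last. Klf6 ran from distal epithelium through shSox9, niche and 4T1 in vivo, which all overlapped with their neighbours, to 4T1 in vitro, which stood apart. Klf4 was highest with shSox9, apart from distal and niche epithelium, which overlapped, and 4T1 cells in vivo and in vitro lay below, each apart. Klf5 had its highest level in 4T1 cells in vitro, then in vivo, then in distal, shSox9 and niche epithelium, with no overlap between neighbours. Klf9 ran from distal and shSox9 epithelium, which overlapped, to the niche, 4T1 in vitro and 4T1 in vivo, each apart. Klf10 was highest in 4T1 in vivo, with 4T1 in vitro, shSox9 and niche epithelium overlapping below it and distal epithelium lowest and apart. Klf13 was highest in the 3 epithelial groups, which overlapped, and lower in both 4T1 groups, which overlapped with each other. Klf3 differed little, with every neighbouring pair overlapping, and Klf7 stood apart only at its ends, with shSox9 highest and 4T1 in vitro lowest. Klf15 ran from distal to shSox9 to niche epithelium, each apart. By TPM the place of distal epithelium differed for some genes. Its Klf6 mean, given above, was then below those of shSox9, niche and 4T1 in vivo. Klf9 stood at 39.4 to 52.4 TPM with shSox9, apart from and above 32.8 to 36.9 TPM in distal epithelium. Klf15 overlapped between distal epithelium (17.9 to 26.8 TPM) and shSox9 (14.1 to 20.7 TPM).

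The comparison of 4T1 cells from lungs with 4T1 cells from culture asks what changes in the carcinoma cells during outgrowth in the lung. Of the 9 Klf genes tested, 5 rose in vivo, 2 fell and 2 did not pass the test (edgeR quasi-likelihood test with Benjamini-Hochberg adjustment over 14022 genes, adjusted p below 0.05). Over all genes tested 51% were called, 27% as higher and 24% as lower. The median log2 fold change was 0.69 over the 9 genes and 0.01 over all genes. Klf15 was not tested, having 0 counts.

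Among the activators, Klf2, which is induced by flow in endothelium and keeps T cells quiescent, stood at 76.0, 112 and 82.9 CPM in vivo, against 5.18, 7.42 and 7.08 CPM in vitro. Each library in vivo was more than 10 times as high as any in vitro, giving a log2 fold change of 3.79 with an SE of 0.19 (edgeR adjusted p = 9.9e-07). Klf4, a pluripotency factor that also acts in epithelial barriers, had 9.98, 11.4 and 13.9 CPM in vivo, against 1.80, 3.25 and 3.10 CPM in vitro. Its log2 fold change of 2.11 had an SE of 0.23 (edgeR adjusted p = 9.1e-05), and it was one of the less abundant members. Klf6 had 538, 656 and 540.3 CPM in vivo, against 232, 272 and 256 CPM in vitro, with a log2 fold change of 1.20 (SE 0.11, edgeR adjusted p = 2.9e-05). Klf7, a factor of sensory neurons, had 31.6, 28.5 and 33.8 CPM in vivo, against 17.8, 22.6 and 17.8 CPM in vitro, a smaller difference with a log2 fold change of 0.69 (SE 0.12, edgeR adjusted p = 0.0013). For these 4 genes the groups did not overlap.

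Klf5, which drives proliferation in epithelia, went the other way, with 79.0, 78.9 and 89.6 CPM in vivo, against 103, 112 and 92.5 CPM in vitro. The groups stood close, with the highest library in vivo just under the lowest in vitro, with a log2 fold change of -0.31 (SE 0.10, edgeR adjusted p = 0.023). The call was lost without in vivo replicate 1 (adjusted p = 0.075), in vivo replicate 2 (0.060) or in vitro replicate 2 (0.082), when all 15 libraries shared one fit (0.15), and by TPM (0.10). Klf3, the CtBP-dependent repressor, had 51.0, 57.5 and 47.5 CPM in vivo, against 49.4, 55.0 and 48.4 CPM in vitro. These libraries overlapped throughout, and its log2 fold change of 0.036 (SE 0.10) did not pass.

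Among the Sin3A-dependent members, Klf10, also called TIEG1 for its induction by TGF-beta, had 562, 547 and 432 CPM in vivo, against 171, 198 and 162 CPM in vitro. The lowest library in vivo was more than 2 times the highest in vitro, for a log2 fold change of 1.54 (SE 0.12, edgeR adjusted p = 1.4e-05). Klf9, a factor induced by glucocorticoid and thyroid hormones, fell to 13.6, 10.4 and 13.2 CPM in vivo, against 25.8, 24.2 and 20.2 CPM in vitro. The groups did not overlap, with a log2 fold change of -0.91 (SE 0.14, edgeR adjusted p = 0.00066). Klf13, known for control of Ccl5 in T cells, had 168, 177 and 146 CPM in vivo, against 138, 149 and 143 CPM in vitro, and did not pass (log2 fold change 0.20, SE 0.10). It passed as higher without in vivo replicate 3 (0.28, adjusted p = 0.025) and with upper quartile scaling (0.26, adjusted p = 0.048). In all, libraries did not overlap for 7 of the 9 genes, and the same held for 60.3% of all genes tested.

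**Figure D2:**
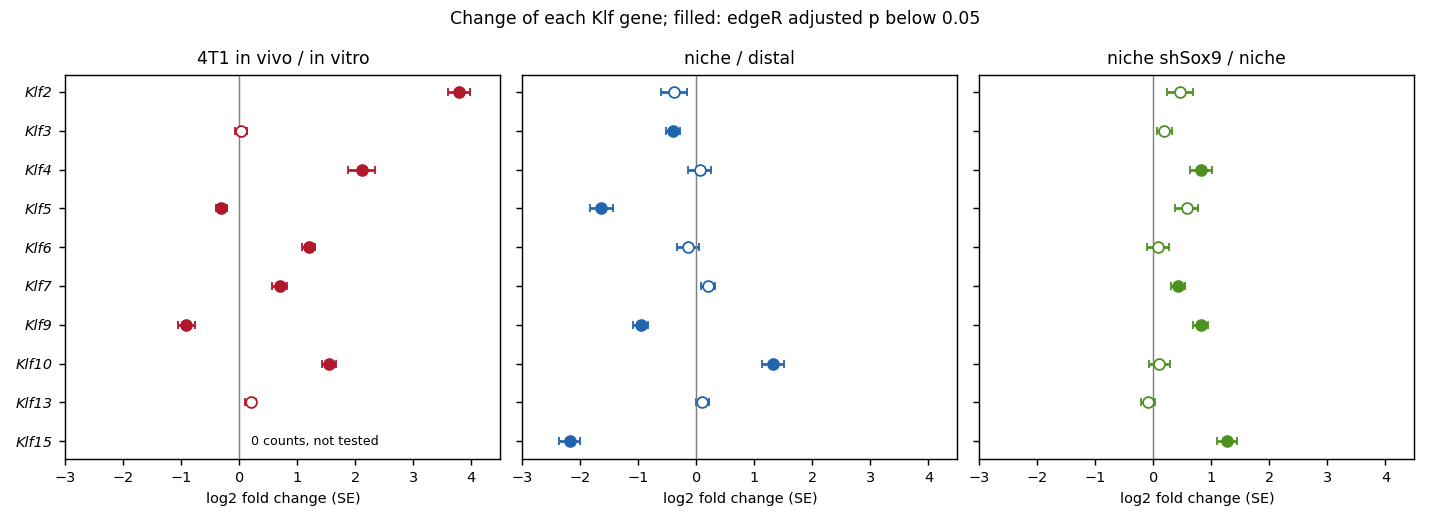
Log2 fold change of each Klf gene, with bars of 1 SE, in 4T1 cells in vivo over in vitro (left), niche over distal epithelium (middle) and niche epithelium labelled shSox9 over niche epithelium (right). Filled points had an edgeR adjusted p below 0.05: 7 on the left, 5 in the middle and 4 on the right. Klf10 is to the right of 0 on the left and in the middle, and Klf15 is far below 0 in the middle and above 0 on the right.

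Markers of other cells also differed in vivo, with 9 of 11 leukocyte, 7 of 9 endothelial, 5 of 8 AT2, 3 of 4 airway and 5 of 5 fibroblast markers tested called higher, and 1 endothelial marker lower. Of 6 markers of alveolar type 1 cells 2 were higher and 2 lower, and their sum was 42.3 to 55.5 CPM in vivo, against 97.2 to 133 CPM in vitro. Summed endothelial markers had 27.3 to 33.6 CPM in vivo, against 21.6 to 26.3 CPM in vitro, where Kdr, Tek, Emcn and Cldn5 were at 0 counts. The in vivo sum was 24.0% to 29.5% of the niche mean. The leukocyte sum in vivo was 1.61% to 6.70% of the niche mean, the AT2 sum 1.60% to 2.06% and the fibroblast sum 0.21% to 0.24%. These percentages include list genes that cultured 4T1 cells express. The AT2 sum was 181 to 232 CPM in vivo and 116 to 133 CPM in vitro. The leukocyte sum was 26.6 to 111 CPM in vivo and 10.9 to 13.4 CPM in vitro. Over 371 genes with at least 20 CPM in niche and distal epithelium and under 0.5 CPM in every culture, the in vivo sum was 1.28% to 3.91% of the niche level. Klf2 in vivo stood at 53.9% to 79.8% of its own niche mean, Klf4 at 34.2% to 47.6%, Klf6 at 78.8% to 96.0% and Klf10 at 264% to 343%, levels that include what 4T1 cells themselves express. Fewer cells of a type and less RNA per cell cannot be told apart in bulk libraries. Immediate early and dissociation genes, which respond within minutes to stress and tissue handling, summed to 6490 to 7130 CPM in vivo, against 920 to 1004 CPM in vitro. All 18 of these genes rose, led by Fos with a log2 fold change of 7.92 and Egr2 with 6.07. The part of the marker genes and of these genes in the Klf results was not tested.

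The comparison of niche with distal epithelium asks how the epithelial cells near metastases differ from those farther away. Of the 10 Klf genes, 1 rose in the niche, 4 fell and 5 did not pass, whereas 54.3% of 17640 genes were called, 28.5% as higher and 25.8% as lower. The median log2 fold change was -0.26 over the 10 genes and 0.02 over all genes. Libraries did not overlap for 5 of the 10, against 63.7% of all genes.

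The activator Klf5 fell to 24.6, 26.2 and 13.8 CPM in the niche, against 71.2, 63.7 and 76.4 CPM in distal epithelium. The highest niche library was below every distal one by more than 2 times, with a log2 fold change of -1.64 (SE 0.20, edgeR adjusted p = 4.2e-05). The 4T1 share of the niche libraries, the median over Atg9b, Exosc6, Hoxa10 and Parpbp, multiplied by the level in vivo equals 81.0% to 91.2% of the niche level of Klf5. With that share subtracted, 1.77 to 4.91 CPM of Klf5 (without TMM scaling) were left in the niche libraries and the log2 fold change was -4.0. The share is a rough estimate from 4 genes, and taken from their sum it would be 21.8% in place of 26.7% in niche replicate 2. In niche replicate 1 it would be 25.1% in place of 22.7%, and in niche replicate 3 it was 13.1% either way. Subtraction with the summed share was not run. Sox9 had 286 to 412 CPM in vivo and 33.0 to 64.9 CPM in the niche, both without TMM scaling. For Sox9 the same product exceeded the measured level in every niche library. The share, or the in vivo level as a stand-in for 4T1 cells in the niche, can thus be too high. Klf3 had 63.0, 56.2 and 53.1 CPM in the niche, against 87.6, 69.2 and 81.1 CPM in distal epithelium. It fell with a log2 fold change of -0.40, SE 0.12 (edgeR adjusted p = 0.017), a call lost without niche replicate 2 (adjusted p = 0.059), niche replicate 3 (0.064) or distal replicate 1 (0.075), and with the 4T1 share subtracted (0.20).

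Klf10 was the 1 Klf gene that rose, with 188, 173 and 129.8 CPM in the niche, against 72.8, 73.0 and 61.0 CPM in distal epithelium. All niche libraries were above all distal ones, with a log2 fold change of 1.32 (SE 0.19, edgeR adjusted p = 0.00012). The 4T1 share equals 57.7% to 86.3% of its niche level, a part that can be too high, as for Sox9 above. With that share subtracted no difference from distal epithelium was found, the log2 fold change being -0.0019 (SE 0.35, edgeR adjusted p = 1.0). Klf9 had 53.4, 52.7 and 59.7 CPM in the niche, against 120.4, 111 and 106 CPM in distal epithelium, with a log2 fold change of -0.96 (SE 0.13, edgeR adjusted p = 9.2e-05). Its 4T1 share was 3.02% to 6.81% of the niche level, and with it subtracted the log2 fold change was -0.55.

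Klf15 had the lowest fold change of the 10 genes between niche and distal epithelium. It fell to 10.1, 9.63 and 12.02 CPM in the niche, against 54.9, 55.9 and 40.2 CPM in distal epithelium. The groups were far apart, with a log2 fold change of -2.18 (SE 0.18, edgeR adjusted p = 2.4e-06). As 4T1 cells had no Klf15 counts in vivo, no part of its niche level equals a 4T1 share, and the log2 fold change was -1.70 with the share subtracted from the other genes' counts. The mean niche level was 21.0% of the distal mean for Klf15, 30.6% for Klf5 and 49.2% for Klf9, beside 4.09% for the AT2 marker sum, in which all 10 markers fell. Leukocyte markers stood at 328% and fibroblast markers at 325% of their distal sums in the niche. The part of these marker differences in the Klf results was not tested.

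The other 5 genes did not pass between niche and distal epithelium, and their libraries overlapped. Klf2 had 112, 188 and 123 CPM in the niche, against 139, 256 and 183 CPM in distal epithelium, with replicate 2 the highest of each group. Its log2 fold change of -0.38 missed the threshold (SE 0.22, edgeR adjusted p = 0.17), but it passed as lower without niche replicate 2 (-0.64, adjusted p = 0.030) and with only these 6 libraries and the replicate number as a block (-0.45, adjusted p = 0.0058). Klf6 had 566, 793 and 689 CPM in the niche, against 769, 984 and 623 CPM in distal epithelium (log2 fold change -0.14, SE 0.19). Klf4 had 28.5, 34.9 and 24.1 CPM in the niche, against 24.6, 39.4 and 24.2 CPM in distal epithelium (log2 fold change 0.057, SE 0.20). Klf7 lay at 32.9 to 36.3 CPM in the niche and 26.5 to 36.5 CPM in distal epithelium, and Klf13 at 288 to 328 CPM in the niche and 280.3 to 326 CPM in distal epithelium. After subtraction of the 4T1 share, Klf7 (log2 fold change 0.35, adjusted p = 0.045) and Klf13 (0.40, adjusted p = 0.023) passed as higher in the niche. By limma on the deposited TPM the median of all genes was 0.48 on the log2 scale. Klf7 (0.91) and Klf13 (0.69) then passed as higher, and Klf2, Klf3 and Klf6 lay above 0 without passing.

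**Figure D3:**
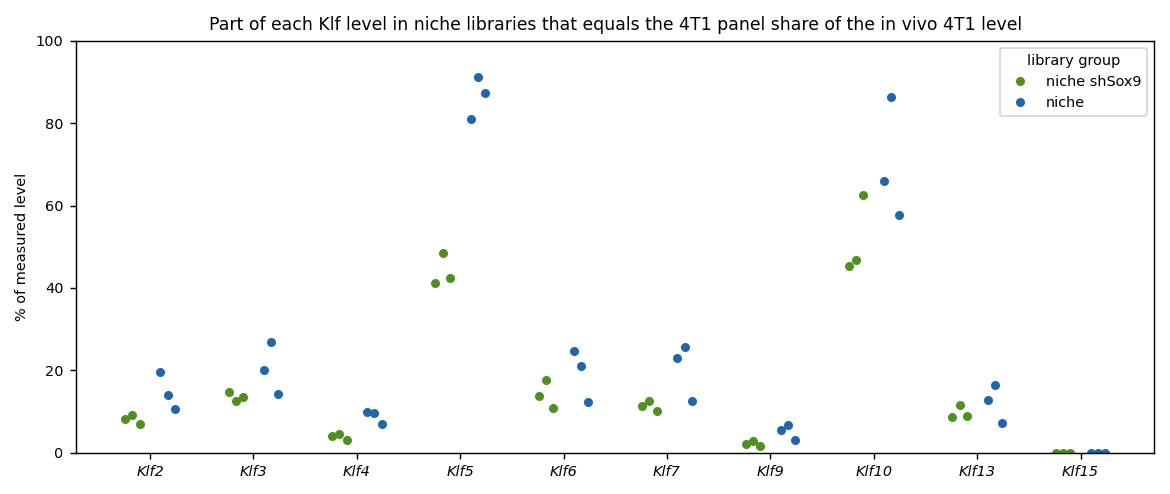
Part of the measured level of each Klf gene that equals the 4T1 share of the library multiplied by the level of the gene in 4T1 cells in vivo, in percent, with 1 point per library labelled shSox9 (left of each pair) or niche (right). Klf5 (81.0% to 91.2%) and Klf10 (57.7% to 86.3%) have the highest parts in the niche, and Klf15 is at 0 in both groups.

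The libraries labelled shSox9 were compared with the niche libraries, which also serve in the comparison above, so the comparisons share samples. Of the 10 Klf genes 4 were higher under the label shSox9, 0 were lower and 6 did not pass, where 20.5% of all genes were called, 9.68% as higher and 10.8% as lower. At an unadjusted p under 0.05, 0 Klf genes were lower as well, and DESeq2 called 0 lower and 5 higher. The median log2 fold change was 0.45 over the 10 genes and 0.02 over all genes. Libraries did not overlap for 5 of the 10, against 38% of all genes.

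Klf15 had 28.4, 20.1 and 28.0 CPM with shSox9, against 10.1, 9.63 and 12.02 CPM in the niche, with no overlap (log2 fold change 1.27, SE 0.18, edgeR adjusted p = 0.00068). Klf9 had 103, 77.8 and 112 CPM with shSox9, against 53.4, 52.7 and 59.7 CPM in the niche, again apart (log2 fold change 0.82, SE 0.13, edgeR adjusted p = 0.0013). Klf4 had 52.6, 45.4 and 56.4 CPM with shSox9, against 28.5, 34.9 and 24.1 CPM in the niche, and passed with a log2 fold change of 0.82 (SE 0.19, edgeR adjusted p = 0.012). Klf7 had 48.8, 44.5 and 47.3 CPM with shSox9, against 32.9, 35.3 and 36.3 CPM in the niche (log2 fold change 0.43, SE 0.12, edgeR adjusted p = 0.027). The calls of Klf4 and Klf7 were not kept in every fit that left out 1 library. Over these fits the log2 fold change was 0.71 to 0.97 for Klf4 and 0.39 to 0.46 for Klf7. Klf4 missed the threshold without shSox9 replicate 3 (adjusted p = 0.0501), and Klf7 missed it without shSox9 replicate 2 (0.053) or 3 (0.069) and without niche replicate 1 (0.11) or 2 (0.076).

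Klf5 had 35.7, 30.6 and 30.0 CPM with shSox9, against 24.6, 26.2 and 13.8 CPM in the niche, with no overlap, but did not pass (log2 fold change 0.57, SE 0.20, edgeR adjusted p = 0.060). It passed with DESeq2 (adjusted p = 0.031), without niche replicate 2 (0.045), with only these 6 libraries and the replicate number as a block (log2 fold change 0.62, adjusted p = 0.045) and with the 4T1 share subtracted (2.46, adjusted p = 0.00067). The 4T1 share equals 41.2% to 48.5% of its level with shSox9. Klf10, at 202, 198 and 127 CPM with shSox9, overlapped with the niche libraries (log2 fold change 0.11, SE 0.18). Klf2 had 198, 179 and 203 CPM with shSox9 and Klf6 had 755, 587 and 824 CPM, and neither passed (log2 fold changes 0.46 and 0.082), although Klf2 did without niche replicate 2 (0.72, adjusted p = 0.049). Klf3 (59.1 to 74.1 CPM) and Klf13 (254 to 334 CPM) did not pass either.

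All 10 AT2 markers were higher with shSox9, and their sum stood at 16.98% of the distal mean with shSox9 and 4.09% in the niche. Of 7 airway markers 2 were lower and 0 higher. Klf15 stood at 50.6% of its distal mean with shSox9 and 21.0% in the niche, and Klf9 at 86.6% with shSox9 and 49.2% in the niche. Klf4 stood at 175% with shSox9 and 99.1% in the niche, and Klf7 at 147% with shSox9 and 109% in the niche. Leukocyte markers fell for 7 of 12 genes and stood at 77.7% of the distal sum with shSox9, against 328% in the niche. Immediate early and dissociation genes summed to 25919 to 34300 CPM with shSox9 and 15052 to 17780 CPM in the niche, and 12 of 18 were higher, led by Nr4a1 (log2 fold change 1.39) and Fosb (1.20). Their part in the Klf results was not tested.

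Against distal epithelium, 3 Klf genes were higher with shSox9, 2 were lower and 5 did not pass, beside 43.8% of all genes called, 21.7% as higher and 22% as lower. This comparison shares libraries with both others. Klf10 was higher (log2 fold change 1.42, SE 0.19, edgeR adjusted p = 0.00011), although the 4T1 share equals 45.4% to 62.4% of its level and the call was lost with that share subtracted (0.78, adjusted p = 0.12). Klf4 (log2 fold change 0.88, SE 0.20) and Klf7 (0.63, SE 0.12) were higher as well. Klf5 (log2 fold change -1.06, SE 0.19) and Klf15 (-0.91, SE 0.17) were lower, but both calls were lost by limma on the deposited TPM (adjusted p = 0.094 for Klf5 and 0.15 for Klf15), where 7 of the 10 genes were higher and the median of all genes was 0.44. Klf9 at 97.4 ± 17.6 CPM with shSox9 and 112 ± 7.32 CPM in distal epithelium (SD, n = 3) did not pass. Libraries did not overlap for 5 of 10 Klf genes and for 52.6% of all genes.

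Cultured 4T1 cells and distal epithelium were set against each other as the starting groups of both changes. In the fit over all 15 libraries 2 Klf genes were higher in 4T1 cells in vitro and 8 lower, beside 81.5% of 18242 genes called, 30.5% as higher and 51% as lower. The median of all genes was itself -0.56 on the log2 scale, so each log2 fold change is also given relative to it. Klf10 was higher by 1.36 (SE 0.18), or 1.93 above the median of all genes, and Klf5 by 0.54 (SE 0.17), or 1.11 above it. Klf2 was lower by a log2 fold change of -4.87 (SE 0.27), -4.30 from the median, and Klf4 by -3.42 (SE 0.25), -2.86 from it. Klf9 had a log2 fold change of -2.27, Klf6 of -1.64 and Klf13 of -1.07. From the median these were -1.70 for Klf9, -1.08 for Klf6 and -0.51 for Klf13. Klf3 (-0.64) and Klf7 (-0.71) differed from the median of all genes by only -0.07 and -0.15, and by the deposited TPM both lay slightly above 0. Klf15, with 0 counts against 50.3 ± 8.79 CPM in distal epithelium, was at least 1285-fold lower in 4T1 cells in vitro, taking 3 counts over the group as the floor. Against distal epithelium its level in 4T1 cells in vivo was at least 1053-fold lower by the same floor. All 10 genes had libraries that did not overlap, as had 82.4% of all genes.

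The change from culture to lung in 4T1 cells and that from distal lung to niche in epithelium were compared by an interaction term over the 15 libraries. Of the 9 genes that could be fitted 6 had a higher change in 4T1 cells, 0 a lower one and 3 did not pass, beside 50.3% of all genes called, 29.1% as higher and 21.2% as lower. The median of all genes was 0.30. Klf2 differed most, with a log2 difference of 4.23 (SE 0.34, edgeR adjusted p = 1.5e-07), followed by Klf4 with 2.11 (SE 0.33), Klf6 with 1.40 (SE 0.24) and Klf5 with 1.39 (SE 0.24). Klf7 (0.56, SE 0.18) and Klf3 (0.49, SE 0.17) also passed, at 0.26 and 0.19 above the median of all genes. For Klf10 the difference was 0.29 (SE 0.25, edgeR adjusted p = 0.36), for Klf9 0.11 (SE 0.20, 0.69) and for Klf13 0.16 (SE 0.15, 0.43), which did not pass. The 4T1 share equals 57.7% to 86.3% of the niche level of Klf10. With that share subtracted its rise in the niche was not found, so a like change of Klf10 in both cell kinds is not shown. At an unadjusted p under 0.05 edgeR also had 0 lower, and DESeq2 called 0 lower and 4 higher. The calls of Klf3 and Klf7 were lost with DESeq2 (adjusted p = 0.13 and 0.084) and without most single libraries. Only the 4T1 change sets cells from lung against cells from culture, as niche and distal cells both came from lungs. Of 18 immediate early and dissociation genes, 17 were higher and 0 lower in this interaction, with a median of 3.78. Their part in the Klf differences was not tested.

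**Figure D4:**
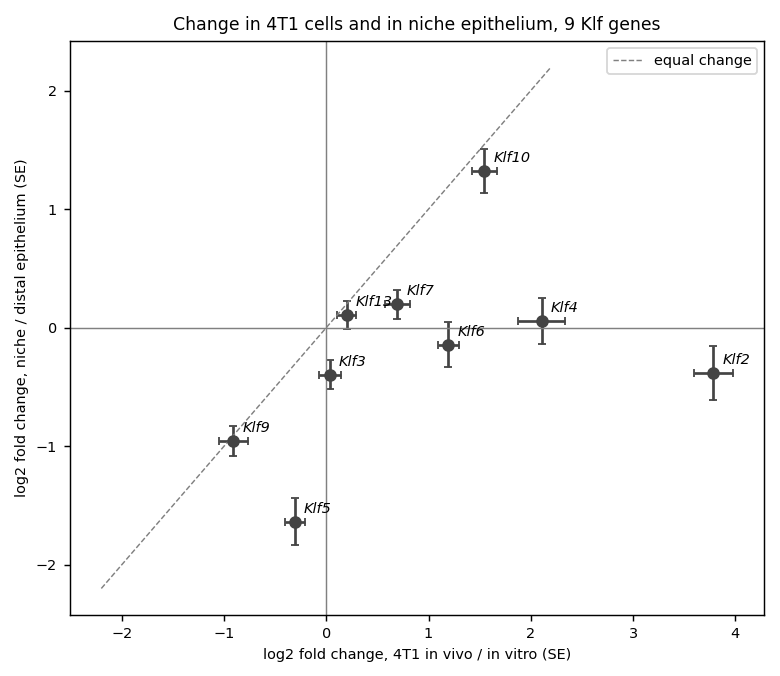
Log2 fold change in 4T1 cells, in vivo over in vitro (horizontal axis), against that in epithelium, niche over distal (vertical axis), for 9 Klf genes with bars of 1 SE. The dashed line marks equal changes, and no 4T1 share was subtracted. Klf10, Klf9 and Klf13 lie near it, and Klf2, Klf4, Klf6 and Klf5 lie to its right, with Klf2 at 3.79 and -0.38.

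Of the other 7 Klf genes, 2 were tested in 4T1 cells and 4 in epithelium. Klf11, a close relative of Klf10, had 35.9, 40.0 and 31.8 CPM in 4T1 cells in vivo, against 7.07, 8.40 and 7.12 CPM in vitro. This was a rise of 2.26 on the log2 scale with an SE of 0.13 (edgeR adjusted p = 2.3e-06). In the niche it fell (log2 fold change -0.59, edgeR adjusted p = 0.0065), and it was higher with shSox9 (0.50, edgeR adjusted p = 0.039). Klf16 fell in 4T1 cells in vivo (-0.50) and rose in the niche (0.76). Klf8 and Klf12 were tested in epithelium and did not pass in the niche or with shSox9, and Klf1, Klf14 and Klf17 were too low to test. Of the related Sp factors, 3 of 5 rose in 4T1 cells in vivo, namely Sp4 (0.46), Sp3 (0.44) and Sp1 (0.41), and 3 of 6 fell in the niche, led by Sp5 with 0.775 CPM in the niche and 18.3 CPM in distal epithelium.

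Partners and regulators of Klf proteins, and the lists after them, are set beside the shares over all genes tested, which were 27% higher and 24% lower in 4T1 cells in vivo, 28.5% and 25.8% in the niche, and 9.68% and 10.8% with shSox9. The counts of corepressors and coactivators lay near or under these shares. Of 10 corepressors and coactivators 2 rose in 4T1 cells in vivo, the acetyltransferases Kat2b (log2 fold change 0.91) and Ep300 (0.33), and Ctbp1, the Klf3 corepressor, fell (-0.40). In the niche 3 rose, led by Hdac1 (0.70) and Sin3b (0.66), and 3 fell, led by Ncor1 (-0.61) and Kat2b (-0.61). Of 13 upstream regulators 5 rose in 4T1 cells in vivo and 0 fell, among them Srf (0.98), the factor of the CArG box, and Mef2a (0.65). In the niche 2 of the 13 rose, Mapk7 (0.47) and Btrc (0.29), and 2 fell, both counts under the shares of all genes. Those that fell were the ubiquitin ligase Wwp1 (-1.03), which targets Klf proteins for degradation, and the glucocorticoid receptor gene Nr3c1 (-0.47). With shSox9, Mef2c alone of the 13 changed, at -0.60.

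Genes known as Klf targets in some tissue showed both directions. Of 17 tested in 4T1 cells 7 rose in vivo and 4 fell. Those that rose included Txnip (log2 fold change 2.70), Ccl5 (1.54), the cell cycle inhibitor Cdkn1a (1.18) and Eng (0.69). In the niche 11 of 18 rose, led by Ccnb1 (2.23), Lgals3 (2.0) and Ccnd1 (1.72), and 4 fell, led by Gpt (-3.82), an alanine aminotransferase under Klf15 control in mouse liver. With shSox9 Gpt rose (0.91), while Ccl5 (-2.30), Lgals3 (-1.26) and Tgfbr1 (-0.66) fell.

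Glucocorticoid response genes were followed because Klf9 and Klf15 are known members of that response. In 4T1 cells in vivo 7 of 12 rose and 1 fell, with Dusp1 (3.62), Nfkbia (2.53) and Tsc22d3 (2.41) leading, and Klf9 fell in the same libraries. In the niche 6 of 14 rose, among them Mt2 (2.17), Sgk1 (1.95) and Fkbp5 (1.87), and 6 fell, among them Pdk4 (-1.28). Klf9 and Klf15 both fell there. The part of glucocorticoid in the Klf results was not tested. With shSox9 5 of 14 were higher and 0 lower, led by Cebpd (0.91), whose libraries overlapped between the groups, and Errfi1 (0.85). Circadian clock genes, to which Klf9, Klf10 and Klf15 are linked, fell for 12 of 18 in the niche and rose for 2, with a median log2 fold change of -0.80. The falls were led by Dbp (-2.58), Npas2 (-2.28), Nr1d1 (-2.11) and Per3 (-2.04), and the libraries of Dbp overlapped between the groups. With shSox9 4 were higher, among them Nr1d1 (1.95) and Nr1d2 (1.21), and 2 lower.

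Likeness of pattern was measured over the 15 libraries as the root mean square (RMS) difference of centred log2(CPM + 1) values, among 12463 genes. The genes nearest to Klf2 were Atf3 (0.27) and Jun (0.34), both immediate early genes, against an RMS of 1.78 for Klf2 about its own mean. Klf4 was nearest to Adamts8 (0.26) and Junb (0.30). Klf10 was nearest to Mybl1 (0.21) and Amigo2 (0.28), and Klf15 to Fam13a (0.20) and Adra1a (0.24). Klf9 was nearest to Pik3r3 and Tmem150a (0.27 each). Klf6 was nearest to Ppp4r1l-ps (0.13) and Tctn1 (0.20), Klf7 to Ltbp3 and Bcl2 (0.16 each), Klf3 to Ncoa2 and Bicral (0.11 and 0.12) and Klf13 to Atp9b (0.12) and Ric1 (0.13). Libraries of a group share their cells, so these values describe the 5 groups more than 15 independent points.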

How the data were processed

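RNA of 15 libraries was deposited as 1 RSEM table each, on GRCm38 per the submitters' processing notes, which also name DESeq2. For the aligner, annotation release and strand setting nothing is stated (not given in the sources used here). Expected counts as deposited, estimated by the authors' RSEM run, need not be whole (11.8% to 14.1% of values were not), and those of Klf3 and Klf13 share reads with other genes in 14 and 15 libraries. The deposited TPM were scaled for length by the authors' RSEM run. Of 54838 identifiers 54723 had a GENCODE M21 symbol. Counts were rounded and tested with edgeR 4.0.16 in R 4.3.3 (quasi-likelihood, TMM, filterByExpr, Benjamini-Hochberg, threshold 0.05), with 6 libraries for 4T1 cells, 9 for epithelium and 15 for comparisons across both. limma 3.58.1 was used on log2(TPM + 1) and DESeq2 1.42.0 on the counts, as alternatives. The steps were tested on simulated data. Libraries of a group differed beyond counting noise. Whether 4T1 replicates were separate cultures or mice is not stated, and their p-values then reflect library spread that may be technical.

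Replicate numbers come from the titles, with the letters A, B and C read as 1, 2 and 3. The first distal library is titled R1, and taking it as the partner of the A libraries is an assumption. Same-numbered libraries labelled shSox9 and niche deviated together (r 0.23 to 0.30 in all 3 pairs), so these numbers pair them. The tests reported have no replicate block, and fits with the block are alternatives. The 4T1 panel held genes with at least 20 CPM in both 4T1 groups and under 0.5 CPM in every distal library. A count of 0 allows up to 3 counts, and floors cover counting error only. The Klf genes and all lists were chosen with earlier results of these data known. Named genes are all 10 members, up to 4 called genes per list and comparison (5 CPM or more in one group), and the 2 nearest genes of each member, except that those of Klf5 are not reported here.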

Additional observations from a re-analysis of the deposited data

Results flagged for a closer look

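The change of 6 Klf genes in 4T1 cells (in vivo over in vitro) differed from that in epithelium (niche over distal) by an interaction test across all genes in edgeR. The log2 differences were 4.23 for Klf2, 2.11 for Klf4, 1.40 for Klf6 and 1.39 for Klf5, all higher in 4T1 cells, and these 4 kept their call without any single library. For Klf7 (0.56) and Klf3 (0.49) the call was lost in most fits that left out 1 library. The median of all genes was 0.30 in the same test. For 18 immediate early and dissociation genes it was 3.78, with 17 called higher and 0 lower. Only the 4T1 change sets cells from lung against culture, and the part of these genes in the Klf differences was not tested. For Klf5 the change was lower in both cell kinds, with log2 fold changes of -0.31 in 4T1 cells and -1.64 in epithelium.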

How the results depend on the processing

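Of 37 called Klf results, 25 kept direction and call under every alternative run. In 4T1 cells 6 genes rose, in place of 5, with upper quartile scaling or without in vivo replicate 3, the sixth being Klf13. There 1 gene fell, in place of 2, with limma on log2(TPM + 1) or all 15 libraries in one fit, and 1 to 2 with each library left out. In the niche against distal lung 3 genes rose by TPM and 2 with the 4T1 share subtracted, in place of 1. With shSox9 against the niche 2 to 5 genes were higher with each library left out. With shSox9 against distal lung 7 were higher and 0 lower by TPM, and in the interaction test 1 was lower by TPM. By TPM the median of all genes was 0.48 in the niche and 0.44 with shSox9 against distal lung, and these values turned: Klf2 0.21, Klf3 0.11 and Klf6 0.47 in the niche, Klf3 0.022 and Klf7 0.19 in 4T1 cells in vitro against distal lung, Klf3 -0.13 and Klf7 -0.33 in the interaction, and Klf3 -0.020 in 4T1 cells (-0.0050 without a filter). In the niche Klf4 turned to -0.058 and Klf13 to -0.0075 with upper quartile scaling, Klf4 to -0.016 with only the 6 libraries, and Klf6 to 0.040 and Klf10 to -0.0019 with the 4T1 share subtracted. Leaving out each library gave ranges across 0 for uncalled genes, of -0.059 to 0.10 for Klf3 in 4T1 cells, -0.086 to 0.33 for Klf4 and -0.29 to 0.042 for Klf6 in the niche, and -0.037 to 0.21 for Klf6 and -0.034 to 0.29 for Klf10 with shSox9 against the niche. The cause was not tested. The replicate block in the full fits changed no call named above, with 5 higher and 2 lower in 4T1 cells and 1 higher and 4 lower in the niche. With only the 6 libraries and the block, an alternative chosen after seeing the data, Klf5 passed with shSox9 (0.62) and Klf2 in the niche (-0.45). Outside the shSox9 and niche pair, numbers did not pair the libraries (r -0.14 to 0.18).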
